A study of Mus musculus with 6 samples.

Results

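Lubricin and other secreted or membrane proteins known from cartilage are encoded by the genes described here, 10 of 55377 in the count tables. They are Cytl1, Prg4, Clec3a, Itm2a, Cnmd, Snorc, Ucma, Scrg1, Cilp and Cilp2, and each symbol matched 1 row in every table. They were selected on their symbols when fold changes and calls of the same comparison were already known. Their changes with Irf1 siRNA are therefore a description, printed without p-values, and are no independent evidence of a response.

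Articular chondrocytes, the cells that build and maintain joint cartilage, came from articular cartilage of mice and were kept as a primary culture. They were transfected with a control siRNA (siNC, labelled control) or with an Irf1 siRNA (siIRF1, labelled Irf1-knockdown), and RNA was taken after 36 h. Each treatment had 3 libraries of polyadenylated RNA. The protein made from Irf1 switches on genes in response to interferons, and the series title connects its loss with DNA damage and osteoarthritis. The strain, age and sex of the mice, the siRNA sequences and the origin of replicates (separate cultures or not) were missing from the labels used here. The spread between libraries may therefore be technical.

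Cartilage owes its stiffness to collagen and aggrecan, but its cells also secrete many smaller proteins. Lubricin coats the joint surface and lowers friction. Chondromodulin keeps blood vessels out, and the vitamin K-dependent protein Ucma binds calcium in the matrix. Itm2a and Cnmd are membrane proteins that share a BRICHOS domain. Cytl1 is a small secreted cytokine-like protein, and Scrg1 is a small secreted protein first found through its rise in scrapie and later tied to chondrogenesis. Clec3a is a cartilage lectin related to tetranectin, Snorc is a transmembrane chondroitin sulphate proteoglycan, and Cilp and Cilp2 are proteins of the cartilage matrix. Cilp is known to bind TGF-beta.

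Irf1 checks the labels. Its mean level was 11.98 ± 0.759 CPM (SD, n = 3) in the controls and 5.58 ± 0.471 CPM after its siRNA, a log2 fold change of -1.10 (SE 0.11, edgeR adjusted p = 3.00e-06). CPM are counts per 1000000 of the library total, adjusted by TMM factors. Totals ran from 22349142 to 29282494 counts, and every Irf1 siRNA library was shallower than every control library; the part of depth in the results was not tested. The 27 chondrocyte genes listed for comparison, Col2a1 and Acan among them, summed to 102900 to 133500 CPM in controls and 102100 to 133200 CPM after Irf1 siRNA. Markers of other cells were much lower. Of 5 endothelial markers, 4 had at most 12 counts in every library, as had 3 of 6 macrophage markers and 3 of 5 muscle markers. Fibroblast markers were the exception: the 8 genes summed to 7093 to 8689 CPM in controls and 5103 to 6259 CPM after Irf1 siRNA. Most of this sum came from Col1a1, Col1a2 and Col3a1, at 4083, 2892 and 854 CPM in controls. Dpt and Pi16 had at most 12 counts in every library. Thy1 and Postn were at 9.16 and 12.7 CPM in controls and were not called. Their log2 fold changes were -0.30 and -0.26 (edgeR adjusted p = 0.0651 and 0.0814). Pdgfra was not called either (log2 fold change 0.01). Col1a1, Col1a2 and Col3a1, which cultured chondrocytes also express, fell by 0.51, 0.53 and 0.55 on the log2 scale (adjusted p = 0.00354, 1.23e-04 and 3.38e-04 in the edgeR quasi-likelihood test). The summed osteoblast markers were 83.4 to 109 CPM and 54.7 to 80.5 CPM, with 0 of 4 tested genes past the threshold, and the 3 tendon markers 25.7 to 28.7 and 20.2 to 26.4 CPM. The 6 macrophage markers summed to 7.66 to 10.3 and 10.1 to 10.9 CPM, with Adgre1 at 0 in every library. Of these, 2 were tested. Cd68, a lysosomal gene, rose by 0.40 on the log2 scale (edgeR adjusted p = 0.0316). This call was lost in DESeq2 and without 4 of the 6 libraries in turn (adjusted p 0.0516 to 0.15). Lyz2 went the other way, from 1.57 to 0.975 CPM (log2 fold change -0.69, edgeR adjusted p = 0.0566), and was not called. The part of other cell types in the changes below was not tested. In RNA from whole cultures, fewer cells of a type and less RNA per cell cannot be told apart.

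Promoters were compared because several of the genes rose and because the targeted factor belongs to a family that binds repeats of GAAA. RefSeq promoter windows (GRCm38.p6, 250 bases before to 50 bases after the start) were found for 6 of the 10 genes. The counts were made on GRCm39, so the coordinates below belong only to the sequences. Runs of 9 capitals mark GAAANNGAA, an interferon regulatory factor word, and runs of 6 capitals mark the GC box GGGCGG, each on either strand. The windows are Cytl1 at chr5:37735269-37735568 (plus strand), Ucma at chr2:4975872-4976171 (plus), Itm2a at chrX:107403311-107403610 (minus) and Cilp2 at chr8:69887343-69887642 (minus). Cytl1 and Ucma are shown because they hold the first word, and Itm2a and Cilp2 because they rose and do not.
Cytl1: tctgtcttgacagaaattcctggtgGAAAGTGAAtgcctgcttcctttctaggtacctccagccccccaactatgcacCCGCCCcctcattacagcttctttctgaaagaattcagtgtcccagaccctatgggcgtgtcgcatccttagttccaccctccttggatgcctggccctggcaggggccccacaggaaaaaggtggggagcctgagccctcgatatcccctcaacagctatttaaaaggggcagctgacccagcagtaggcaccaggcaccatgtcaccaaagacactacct
Ucma: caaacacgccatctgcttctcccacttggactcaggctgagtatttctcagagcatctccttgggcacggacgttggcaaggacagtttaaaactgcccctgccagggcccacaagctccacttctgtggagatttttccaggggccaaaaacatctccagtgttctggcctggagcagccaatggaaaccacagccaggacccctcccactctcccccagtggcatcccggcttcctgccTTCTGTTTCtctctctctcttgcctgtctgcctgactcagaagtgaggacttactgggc
Itm2a: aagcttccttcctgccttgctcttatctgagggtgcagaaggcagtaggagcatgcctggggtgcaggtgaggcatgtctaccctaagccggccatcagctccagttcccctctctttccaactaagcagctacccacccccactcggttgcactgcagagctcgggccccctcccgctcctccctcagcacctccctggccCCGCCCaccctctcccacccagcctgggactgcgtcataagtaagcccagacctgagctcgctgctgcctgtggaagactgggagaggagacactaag
Cilp2: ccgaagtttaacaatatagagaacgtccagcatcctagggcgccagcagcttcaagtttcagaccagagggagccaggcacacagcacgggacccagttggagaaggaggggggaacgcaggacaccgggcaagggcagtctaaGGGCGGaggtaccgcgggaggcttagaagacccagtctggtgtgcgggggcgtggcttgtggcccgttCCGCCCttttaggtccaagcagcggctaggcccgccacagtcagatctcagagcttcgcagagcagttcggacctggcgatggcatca

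The word GAAANNGAA was present in 2 of the 6 windows, and in 8.56% of all 32851 promoter windows in the table. In Cytl1 it began 225 bases before the start, as GAAAGTGAA. In Ucma it lay on the other strand, 9 bases before the start. Of these 2 genes, Cytl1 was called higher with Irf1 siRNA, and Ucma was not past the threshold and had a negative log2 fold change. The GC box was present in 3 of the 6 windows (Cytl1, Itm2a and Cilp2) and in 35.7% of all windows. TATAAA and the SOX word ACAATG were found in 0 of the 6, against 13.6% and 12.6% of all. The RUNX word TGTGGT was found in Cilp and Ucma (16.8% of all), and the AP-1 word TGANTCA in Ucma (7.81% of all). All words were searched on both strands, and no word overlapped another in these windows. A match is a run of letters and not a binding site.

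Levels between genes were compared per kb of exons, since longer transcripts give more reads. With control siRNA, Cnmd was highest at 730 ± 60.0 CPM per kb (SD, n = 3), rank 24 of the 14653 tested genes with an exon length. Ucma followed at 376 ± 40.7, Itm2a at 261 ± 13.2, Clec3a at 254 ± 24.1, Snorc at 183 ± 22.8 and Scrg1 at 134 ± 17.0 CPM per kb. Itm2a and Clec3a did not differ beyond their spread. Prg4 stood at 9.86 ± 1.22 and Cytl1 at 7.70 ± 1.17 CPM per kb, with overlapping spreads and ranks of 4313 and 5178. Cilp2 (0.372 ± 0.135) and Cilp (0.0327 ± 0.0073) were lowest. The order thus ran from one of the most abundant transcripts of these cells to a gene with 12 counts in all 3 control libraries.

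**Figure D1:**
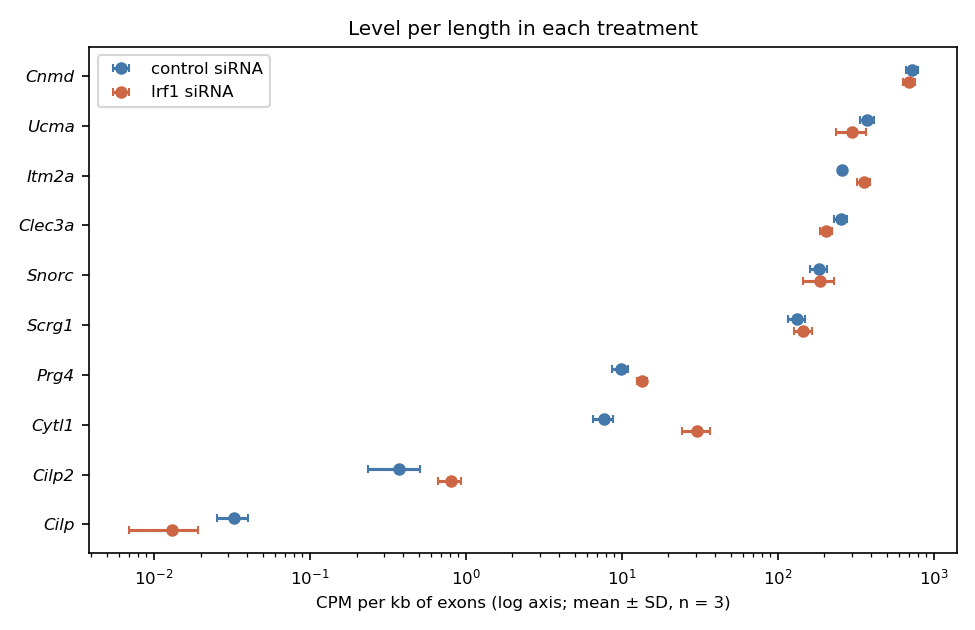
Mean level per kb of exons (x axis, CPM per kb, log axis) of each of the 10 genes with control siRNA (blue) and Irf1 siRNA (orange); error bars are SD over 3 libraries. Cytl1 moves from 7.70 to 30.7 CPM per kb, past Prg4, which moves from 9.86 to 13.6.

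After Irf1 siRNA, Cnmd was again highest (699 ± 63.8 CPM per kb). Itm2a (356 ± 33.5) and Ucma (302 ± 65.2) changed places with overlapping spreads. Clec3a (204 ± 18.2) and Snorc (188 ± 41.5) overlapped. Their order depends on the length used: with the longest transcript in place of all exons, Snorc was at 238 CPM per kb in controls and 244 after Irf1 siRNA, against 254 and 204 for Clec3a. Cytl1 reached 30.7 ± 6.08 CPM per kb and rank 1439, above Prg4 at 13.6 ± 1.08 and rank 3239.

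The comparison of Irf1 siRNA with control siRNA asked how each gene stood after the knockdown. A gene is called changed when its adjusted p in edgeR, over all 14683 tested genes, is under 0.05. Of the 10 genes 9 could be tested, and 4 were called higher (Cytl1, Cilp2, Prg4 and Itm2a), 1 lower (Clec3a) and 4 neither. Over all tested genes, 10.4% were called higher and 12% lower. The same 5 genes had no overlap between the treatments in CPM, which over all tested genes held for 18.6% upward and 19.5% downward. The median log2 fold change was 0.13 over the 9 genes and 0.00 over all tested genes. Since the genes were chosen with these changes known, nothing is read from these shares.

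Among the secreted proteins, Cytl1 (ENSMUSG00000062329.5) moved most. Counts were 264, 196 and 238 in controls and 875, 744 and 717 after Irf1 siRNA, or 9.42, 6.95 and 8.04 against 39.5, 27.0 and 30.6 CPM. The lowest Irf1 siRNA library was well above the highest control library, in raw counts as well, although the Irf1 siRNA libraries were shallower. The log2 fold change was 1.99 (SE 0.15), a 3.97-fold rise. Among the tested genes, Cytl1 lies between Stk32b and Msx1 in GRCm38 order, and both were weakly expressed and called higher. Untested genes were skipped, and distances are not given. Stk32b, a kinase gene, was at 3.12 CPM with control siRNA and rose by 0.43 on the log2 scale, and Msx1, a homeobox gene, was at 1.84 CPM and rose by 0.69. Of the 20 tested genes that flank the 10, 5 were called higher and 4 lower, beside 10.4% and 12% of all tested genes; whether flanking genes differ from others was not tested.

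**Figure D2:**
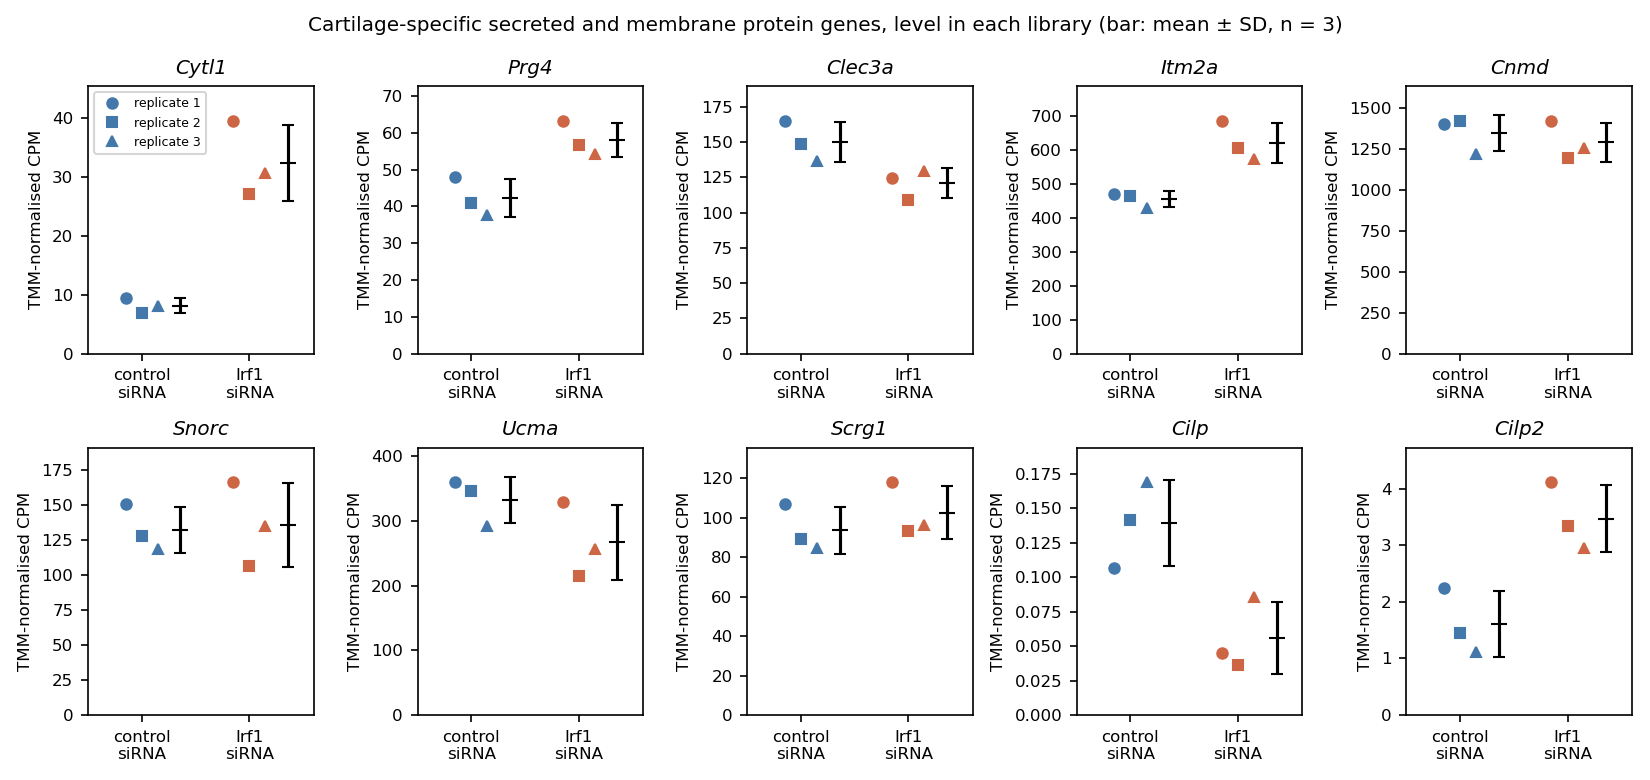
TMM-normalised CPM (y axes start at 0) of the 10 genes in each library; marker shape gives the replicate number, and the bar beside each group its mean and SD (n = 3). The Irf1 siRNA libraries lie above every control library for Cytl1, Prg4, Itm2a and Cilp2, and below them for Clec3a; Cilp rests on 16 counts in all.

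Prg4 (ENSMUSG00000006014.17), the lubricin gene, had 1344, 1155 and 1118 counts with control siRNA and 1401, 1559 and 1273 with Irf1 siRNA. On the CPM scale these are 47.9, 41.0 and 37.7 against 63.2, 56.6 and 54.4. The treatments did not overlap, and the gap between them was smaller than the range within the controls. The rise was 1.38-fold (log2 fold change 0.46, SE 0.08). Tpr, a nuclear pore gene on the opposite strand, overlaps Prg4 in the annotation, and how far their exons overlap was not measured. No source used here states the strand setting of the counting, so reads from a shared stretch cannot be assigned here. Tpr was at 98.9 CPM with control siRNA and was called lower (log2 fold change -0.17). Of the tested genes that flank Prg4, Odr4 was called lower (-0.35) and Hmcn1 was not called (0.18).

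Clec3a (ENSMUSG00000008874.4) was the one called lower. Its levels were 165, 149 and 137 CPM in controls and 124, 109 and 129 CPM after Irf1 siRNA, from 2754 to 4626 counts. The treatments were separate but close, with 137 CPM the lowest control and 129 CPM the highest Irf1 siRNA value. The log2 fold change was -0.32 (SE 0.08). Its 2 tetranectin-type relatives were listed for comparison. Clec3b had at most 2 counts in any library, and Clec11a, a secreted growth factor of bone, was at 22.5 ± 2.27 CPM in controls and fell to 14.1 ± 2.07 (log2 fold change -0.68, SE 0.11, edgeR adjusted p = 2.55e-04).

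Itm2a and Cnmd are the BRICHOS pair. Itm2a (ENSMUSG00000031239.6), which marks early chondrogenic cells, was at 471, 465 and 429 CPM with control siRNA and at 686, 606 and 572 CPM with Irf1 siRNA. All Irf1 siRNA libraries were higher, by 1.37-fold in the fit (log2 fold change 0.45, SE 0.07). Cnmd (ENSMUSG00000022025.14), which encodes chondromodulin, was at 1402, 1417 and 1218 CPM against 1419, 1191 and 1256 CPM. These groups overlapped, with a log2 fold change of -0.06 (SE 0.07), and Cnmd was not past the threshold. Whether the 2 genes differ in response was not tested. The relatives Itm2b and Itm2c had log2 fold changes of 0.09 (edgeR adjusted p = 0.273) and 0.14 (0.0929), and Tnmd, the tendon homologue of Cnmd, was near 1 CPM.

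Ucma (ENSMUSG00000026668.11), the Gla-rich matrix protein, was at 360, 346 and 292 CPM with control siRNA and at 329, 215 and 256 CPM with Irf1 siRNA. The groups overlapped only through Irf1 siRNA replicate 1. The log2 fold change was -0.32, as large as that of Clec3a but with an SE of 0.16 against 0.08, and Ucma was not past the threshold. It was -0.50 and called lower without Irf1 siRNA replicate 1, and -0.18 and not called without Irf1 siRNA replicate 2. Among the other Gla proteins and their enzymes, Mgp, an inhibitor of calcification, rose from 367 ± 34.8 to 492 ± 38.5 CPM (log2 fold change 0.42, SE 0.07, edgeR adjusted p = 6.48e-04). Pros1, which encodes protein S, fell by 0.29 (adjusted p = 0.00288) and Ggcx, the carboxylase that makes Gla residues, by 0.20 (adjusted p = 0.0297). Upper-quartile scaling, or dropping any one of control replicates 1 and 2 and Irf1 siRNA replicates 2 and 3, ended the call of Ggcx (adjusted p 0.0559 to 0.126).

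Snorc (ENSMUSG00000026258.6) and Scrg1 (ENSMUSG00000031610.4) showed no call. Snorc was at 150, 128 and 118 CPM with control siRNA and at 166, 106 and 135 CPM with Irf1 siRNA. The Irf1 siRNA libraries enclosed all control values, with a log2 fold change of 0.04 (SE 0.18) whose sign turned when Irf1 siRNA replicate 1 (-0.14) or control replicate 3 (-0.04) was left out. Scrg1 was at 107, 89.0 and 84.6 against 118, 93.3 and 96.5 CPM. These also overlapped, with a log2 fold change of 0.13 (SE 0.10) that was 0.02 without Irf1 siRNA replicate 1 and 0.24 without control replicate 1, with no call in either.

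Cilp2 (ENSMUSG00000044006.9) was low and rose. It had 63, 41 and 33 counts with control siRNA and 91, 92 and 69 with Irf1 siRNA, or 2.25, 1.45 and 1.11 against 4.11, 3.34 and 2.95 CPM. The groups did not overlap, and the rise was 2.16-fold (log2 fold change 1.11, SE 0.23). It ranged from 0.90 without control replicate 3 to 1.43 without control replicate 1. Its tested neighbour Lpar2, a lysophosphatidic acid receptor gene, was at 2.97 CPM and was called higher by 1.02 on the log2 scale. Yjefn3, the tested neighbour on the other side, had a log2 fold change of -0.03 and no call. Cilp (ENSMUSG00000042254.15) had 3, 4 and 5 counts with control siRNA and 1, 1 and 2 with Irf1 siRNA and was too low to test. The rate of its reads was 0.391 of that in controls, with an exact 95% interval of 0.092 to 1.29 that covers counting error only, so a difference was not detectable at this depth.

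**Figure D3:**
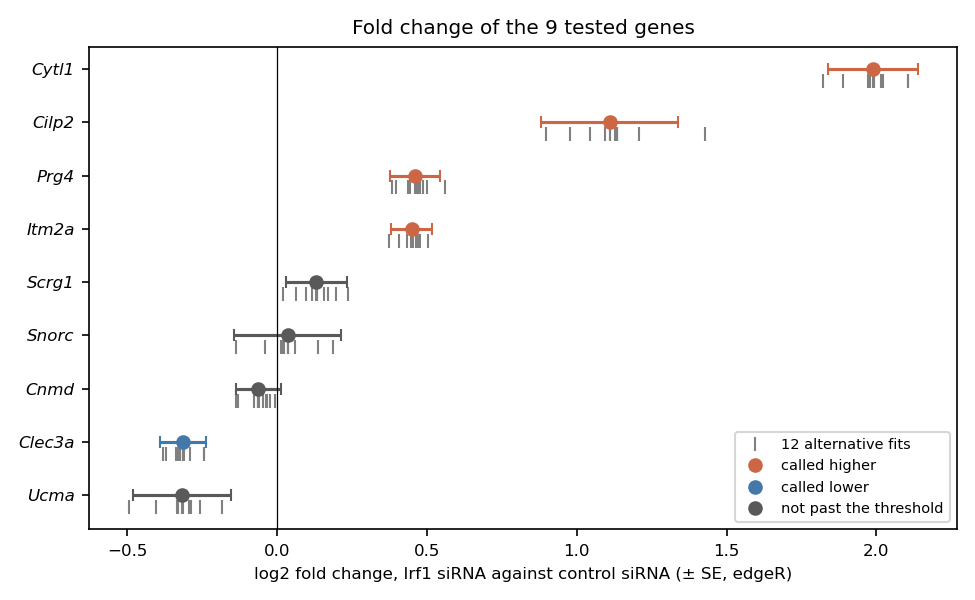
Log2 fold change of the 9 tested genes (points, bars are SE from edgeR) with the 12 alternative fits as grey ticks; orange and blue points were called higher and lower. Cytl1 stays between 1.82 and 2.11 and Cilp2 between 0.90 and 1.43, while the ticks of Snorc fall on both sides of 0.

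Replicates of one treatment also differed, and these genes shared that pattern. Of the 9 tested genes, 8 were highest in control replicate 1 among controls, 8 were lowest in control replicate 3, and 8 were highest in Irf1 siRNA replicate 1. Of the 9, 6 (66.7%) met all 3 conditions, as did 13 of the 27 listed chondrocyte genes (48.1%) and 10.1% of all tested genes. Col2a1 had the same order in the controls, with 2283634, 2113480 and 1782625 counts. The shares describe these 6 libraries.

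Levels were also expressed per 1000 Col2a1 counts of the same library. Ucma then read 4.41, 4.62 and 4.85 with control siRNA and 4.01, 3.57 and 3.53 with Irf1 siRNA. On this scale its treatments no longer overlapped, with a log2 ratio of means of -0.32. Snorc read 1.85, 1.71 and 1.97 against 2.02, 1.76 and 1.86, and its spread fell while its treatments stayed mixed. Cytl1 read 0.116, 0.0927 and 0.134 against 0.481, 0.448 and 0.422. In all, 4 genes (Cytl1, Prg4, Itm2a and Cilp2) lay above every control library per Col2a1 count, 2 (Clec3a and Ucma) lay below, and 3 overlapped. How many of all tested genes were separate on this scale was not counted, so nothing is read from these counts. Col2a1 itself had a log2 fold change of -0.01 (edgeR adjusted p = 0.968). When the fit across all genes was scaled to the summed counts of 6 chondrocyte markers in place of TMM, the SE of Prg4, Itm2a and Clec3a grew to 0.20, 0.19 and 0.20 and their calls were lost. Their log2 fold changes were then 0.47, 0.45 and -0.31, close to those with TMM, and Cytl1 and Cilp2 were still called higher. Most of the summed marker counts came from Col2a1, at 72194 CPM in controls, followed by Acan at 8710 CPM.

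**Figure D4:**
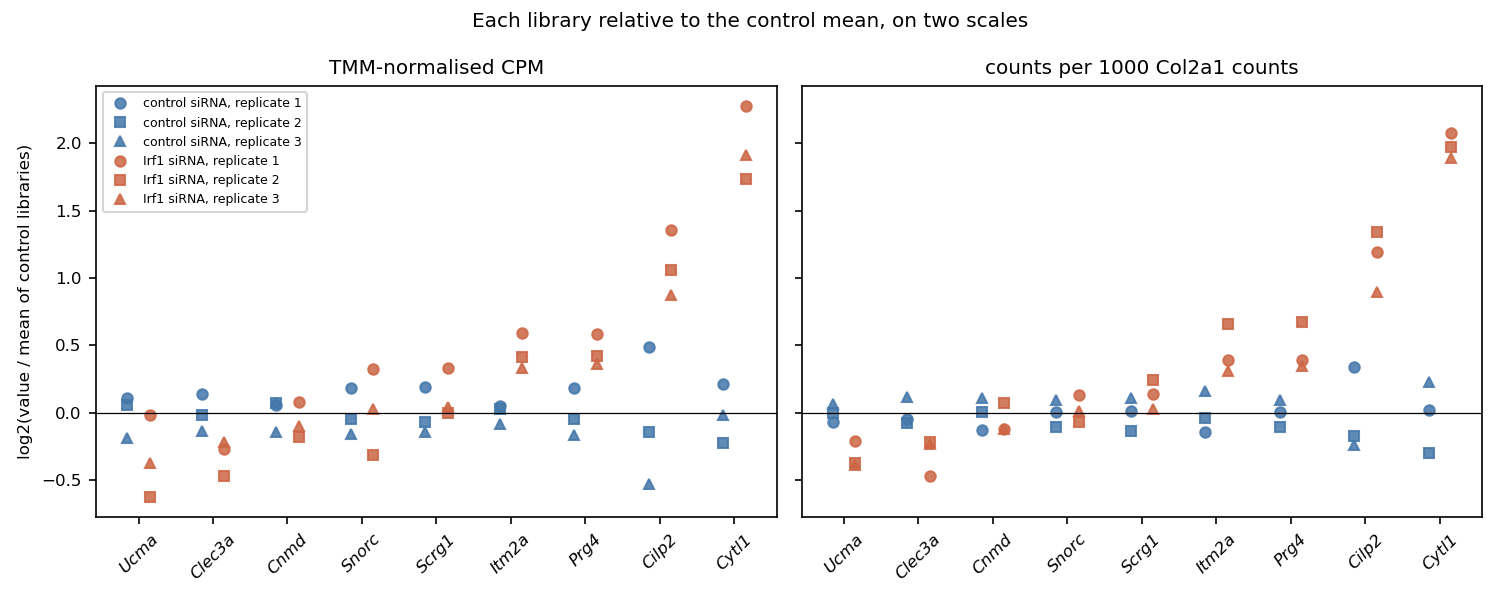
Log2 of each library's value over the mean of the control libraries (y axis) for the 9 tested genes, as TMM-normalised CPM (left) and as counts per 1000 Col2a1 counts (right); blue is control siRNA, orange Irf1 siRNA, and shape the replicate. Replicates of Ucma and Snorc draw together on the right, those of Itm2a spread wider, and the 2 treatments of Ucma separate.

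The genes around them were taken from lists. Of the 28 called genes named outside the 10, 7 kept their call when scaled to the 6 chondrocyte markers (Irf1, Hapln1, Dkk3, Clec11a, Alpl, Spp1 and Vkorc1) and 21 lost it; the ranges of adjusted p given for calls lost under other settings cover the other 11 alternatives. Of 27 tested cartilage matrix and chondrocyte genes outside the 10, 3 rose and 3 fell, with a median log2 fold change of -0.01 against 0.00 for all tested genes. Calls over all tested genes were 10.4% higher and 12% lower. Hapln1, the link protein of aggrecan, fell from 1878 ± 36.7 to 915 ± 59.7 CPM (edgeR adjusted p = 1.60e-08), and the adhesive matrix protein gene Chad by 0.54 on the log2 scale (adjusted p = 0.0316). Epyc, a small proteoglycan gene, rose by 0.19 (adjusted p = 0.0196) and Nkx3-2, a chondrogenic transcription factor gene, by 0.36 (adjusted p = 0.02). Leaving out single libraries ended the calls of Chad (2 of 6 libraries), Epyc (4 of 6) and Nkx3-2 (4 of 6), with adjusted p from 0.0514 to 0.0806. Sox6, a cofactor of Sox9, rose by 0.20 (adjusted p = 0.0301) and Susd5, a hyaluronan-binding protein gene, fell by 0.25 (adjusted p = 0.0386); each lost its call in 6 of the 12 alternatives. With single libraries left out, 0 to 2 listed genes were higher and 1 to 5 lower.

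Lubricin is made in the surface zone of cartilage, and 9 genes of that zone were tested besides Prg4. Dkk3, a Wnt modulator, fell by 0.66 (SE 0.09, edgeR adjusted p = 8.13e-05) and Abi3bp, a matrix protein gene, by 0.56 (SE 0.09, adjusted p = 3.58e-04). Erg, a transcription factor gene of articular chondrocytes, rose by 0.33 (adjusted p = 0.0225). Dropping any one of control replicates 2 and 3 and Irf1 siRNA replicates 1 and 3 ended the call of Erg (0.0637 to 0.104). The median log2 fold change of the 9 was -0.15. The 16 tested factors known to act on Prg4 had a median log2 fold change of 0.02. Of these, 4 fell and 0 rose, against 12% lower and 10.4% higher over all tested genes. They were Egfr (log2 fold change -0.45, SE 0.07, adjusted p = 2.98e-04), Tgfb3 (-0.28, adjusted p = 0.0085), Foxo1 (-0.24, adjusted p = 0.00778) and Nfatc1 (-0.24, adjusted p = 0.0114), and with marker scaling all 4 calls were lost (adjusted p 0.315 to 0.854). Creb5, a transcription factor that drives lubricin, had a log2 fold change of -0.28 (adjusted p = 0.295).

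Of 11 tested genes of the same protein families or of Gla formation, 3 rose and 3 fell. Over all tested genes, 10.4% were called higher and 12% lower, and the 11 had a median log2 fold change of 0.09. Besides those above, Enpp1, which shares somatomedin B domains with lubricin and makes pyrophosphate, rose from 93.8 ± 6.49 to 120 ± 2.95 CPM (edgeR adjusted p = 5.43e-04). Vkorc1, which recycles vitamin K, rose by 1.03 (adjusted p = 0.0193) from 1.05 CPM; without the second library of either treatment its adjusted p was 0.0835 to 0.112. Of 9 tested hypertrophy genes, 1 rose and 3 fell beside the same shares, with a median log2 fold change of -0.17. Spp1, which encodes osteopontin, rose by 0.60 (SE 0.07, adjusted p = 2.05e-05), Alpl, the phosphatase of mineralising cartilage, fell by 0.93 (SE 0.09, adjusted p = 1.54e-06), and Col10a1, the collagen of hypertrophic cartilage, fell by 0.35 (adjusted p = 0.0308). The angiogenic factor gene Vegfa fell by 0.17 (adjusted p = 0.0494). Dropping any one of control replicates 2 and 3 and Irf1 siRNA replicates 1 and 2 ended the call of Col10a1 (0.0545 to 0.102), and RLE or upper-quartile scaling or dropping 1 of 4 libraries ended that of Vegfa (0.0505 to 0.153).

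**Figure D5:**
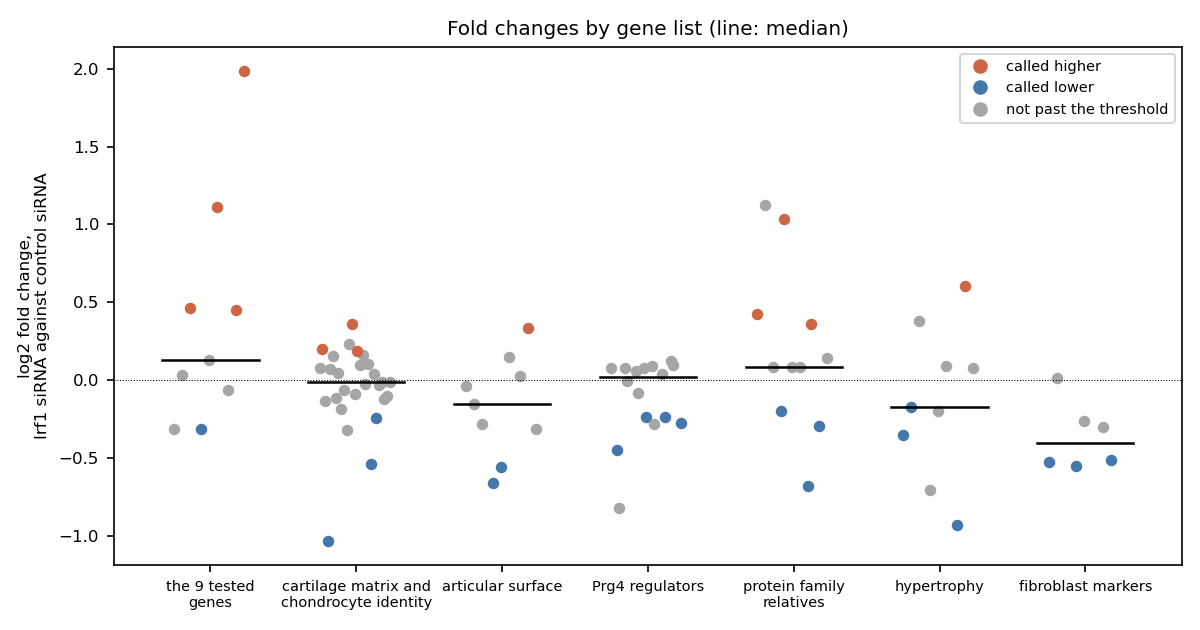
Log2 fold change (y axis) of every tested gene in each list, with the 9 tested genes at the left; lines are medians, orange and blue mark genes called higher and lower. The 9 genes have a median of 0.13 and reach 1.99, and the fibroblast markers have a median of -0.41.

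Likeness across the 6 libraries was measured as Pearson's r of log2 CPM, as a description, among genes averaging 5 CPM or more. These values contain the difference between treatments. The highest were picked from all such genes, so a high r here is no evidence of shared control. Nbl1, which encodes a secreted BMP antagonist, was most like Cytl1 (r = 0.9986) and was 1.55-fold higher with Irf1 siRNA. The next were Bcl2l2, Higd2a, Renbp and Slc35f5. Chad was most like Clec3a (r = 0.9996), followed by Kmt5c, Cdon, Cbx6 and Taok2, and Fam219b was most like Prg4 (r = 0.9985), followed by Arc, Bri3, Dlg2 and Npas3.

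An earlier look at the same counts had picked out 4 words in the 3′ untranslated region from genes that fell. Their part in the falls was not tested here. A first pair is ACTGATC with its overlapping neighbour CTGATCA. A second pair is GCTATCT with its overlapping neighbour CTATCTA. None of the 9 genes with an annotated region (44 to 792 bases) held one, and Clec3a was not searched because the annotation used gives it none. At least 1 word was present in 21.1% of all tested genes with such a region, whose median length was 1211 bases, in 42.1% of genes called lower and in 13.6% of those called higher. The words were taken from falls in these same counts, so the contrast between these shares is no independent evidence. The 9 regions are shorter than that median, and the part of length was not tested. Median lengths were 1343 bases for genes called higher and 1444 bases for those called lower.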

How the data were processed

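The data are 6 RNA-seq libraries, 3 with control siRNA and 3 with Irf1 siRNA, grouped by their labels. The authors deposited raw read counts per gene and library, not normalised. Per the submitters' processing notes, Trimmomatic 0.39, FastQC and STAR were used with build GRCm39 (mm39). Which tool made the counts, from which annotation and with which strand setting, is not given in the sources used here.

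The main test was edgeR 4.0.16 under R 4.3.3: filterByExpr (14683 of 55377 genes, at least 99.91% of the counts of each library), TMM factors, robust quasi-likelihood F test (glmQLFit, glmQLFTest; two-sided), group as the only term, Benjamini-Hochberg adjustment over all tested genes. SE is the absolute log2 fold change over the square root of F. The fit was tested on simulated data. Alternatives were RLE and upper-quartile factors, DESeq2 1.42.0, no filter, a replicate block, leaving out each library, and, added after seeing the data, scaling to 6 chondrocyte markers (Col2a1, Acan, Sox9, Comp, Matn1, Col9a1). An exact permutation test of 3 against 3 cannot go below 0.1, so single values were tested only in the model across genes. Chi-square per degree of freedom between libraries of one treatment was 5.347 to 15.18, so no 2 were the same library. The members, gene lists and words were chosen with earlier results of these data known. Named genes are the 10, Irf1, up to 4 called genes per list by adjusted p, and the 5 genes most like Cytl1, Clec3a and Prg4; Vkorc1, Ggcx, Susd5, Creb5, neighbours and family relatives without a call were named after their values were seen.

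Exon lengths, 3′ untranslated regions (longest of protein-coding transcripts) and gene order came from GENCODE M21 (GRCm38), joined by identifier (99.8% of tested genes had a length), and promoters from RefSeq (GRCm38.p6).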

Additional observations from a re-analysis of the deposited data

How the results depend on the processing

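Cytl1 and Cilp2 were called higher in all 12 alternatives (11 planned). Prg4 and Itm2a (higher) and Clec3a (lower) kept their calls in the 11 planned ones. Leaving out single libraries gave 4 of the genes called higher each time and 1 to 2 called lower, Ucma being the second without Irf1 siRNA replicate 1 (log2 fold change -0.50). The genes called higher over the table ranged from 959 to 1398 and those lower from 1276 to 1716; of the lists, chondrocyte genes gave 0 to 2 higher and 1 to 5 lower, surface zone genes 0 to 1 higher, and hypertrophy genes 1 to 2 lower. Snorc turned to -0.04 without control replicate 3 and to -0.14 without Irf1 siRNA replicate 1, the lower end of a range up to 0.19.

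With the replicate block, 2 of the genes were lower (Ucma with a log2 fold change of -0.33) and 5 hypertrophy genes were lower; no call of the other 8 tested genes changed. Same-numbered libraries correlated at 0.195, -0.0446 and 0.0523 in their deviations from the group means. The replicate 1 libraries were each other's best match, but not every library correlated best with its own number. The SE with the block was 0.07 for Snorc and 0.09 for Ucma, against 0.18 and 0.16 without it. With 3 libraries per group, these values cannot tell whether same-numbered libraries share a culture or batch.

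With scaling to 6 chondrocyte markers, 2 of the genes were higher and 0 lower, 224 genes were higher and 264 lower over the table, and the lists gave 0 higher and 1 lower (chondrocyte), 0 and 1 (surface zone), 0 lower (Prg4 regulators) and 1 and 1 (family relatives). The cause was not tested; SEs were larger. Of 28 called genes outside the 10, 21 lost the call with this scaling, 11 in at least 1 of the other 11 alternatives, and 0 reversed. With the longest transcript in place of all exons, Cnmd read 939 and Snorc 238 CPM per kb in controls. Depth limits Cilp, at 16 counts in all, and Cilp2.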
